A study of Mus musculus with 8 samples.

Results

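The regenerating islet-derived (Reg) genes were followed across the islet cell classes of vehicle- and FAKi-treated mice. The 6 members, *Reg1*, *Reg2*, *Reg3a*, *Reg3b*, *Reg3d* and *Reg3g*, were taken by name from the 19945 genes of the deposited count table, and all 6 were listed and detected. *Reg4*, another gene of the family, had 4 UMIs over all cells and none in acinar cells, and is not described further.

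Islets had been handpicked from wild-type mice given vehicle or FAKi, the focal adhesion kinase inhibitor PF562271, at 50 mg/kg with 2 oral doses a day for 3 weeks. The islets of 5 mice per condition were pooled and collected 10 days after treatment ended, and mice of both sexes were used across the study. The strain is not given for these mice, and the ages stated for the study's animals differ between its methods and its reporting notes. GEO lists 8 samples, which correspond to 4 lanes for each of 2 libraries, 1 vehicle and 1 FAKi. No value therefore has a biological replicate, no test across mice was possible, and all intervals are 95% intervals that cover counting error only.

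The vehicle library held 3776 cells and 59514118 UMIs and the FAKi library 3183 cells and 57836783 UMIs, and 4 cell barcodes occurred in both. A UMI marks 1 captured RNA molecule at its 3′ end, so counts do not scale with transcript length, and levels are given as CPM, the UMIs of a gene scaled to a fixed total of UMIs in its class and library. The 12 cell types are those of the authors' annotation, with β-cells kept apart as their deposited clusters 0, 1 and 10. Acinar cells, present beside the handpicked islets, carry 2 annotated classes. Acinar class 2 had 86 vehicle and 114 FAKi cells with a median of 7931 and 7280.5 UMIs per cell, and acinar class 1 had 161 and 297 cells with 1480 and 1140 UMIs. All 6 acinar markers were detected in each, at a summed level of 206209 and 201289 CPM in class 2 and 144586 and 114794 CPM in class 1. The 6 β-cell markers summed to 6988 and 9552 CPM in class 2 but to 157476 and 252179 CPM in class 1, more than the acinar markers there. The label of class 1 is therefore met by its acinar markers while β-cell markers exceed them, and the part of these transcripts in the class 1 values was not tested.

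Reg proteins are small secreted relatives of C-type lectins. *Reg1* and *Reg2* encode the pancreatic stone proteins that acinar cells release with the digestive enzymes. *Reg3b*, first known as pancreatitis-associated protein, and *Reg3g* encode antimicrobial lectins of the gut lining, and in the pancreas the *Reg3* genes are induced by injury through cytokines that act on Stat3. *Reg3d* is the mouse relative of the islet neogenesis-associated protein. Extl3 has been proposed as a Reg receptor.

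The 6 members lie side by side on chromosome 6, at chr6:78370657-78468872 (GRCm38, 98.216 kb), in the order *Reg3b*, *Reg3d*, *Reg3a*, *Reg2*, *Reg1* and *Reg3g*. *Reg3d* and *Reg3g* are on the minus strand and the others on the plus strand. The annotation places 1 other gene between them, a pseudogene that is absent from the count table. *Reg1* and *Reg2* shared 82.5% of their coding bases, and *Reg3b* and *Reg3g* shared 76.4%, whereas *Reg3d* shared at most 66.3% with any member. Reads could still be told apart. Over the last 500 bases of each transcript, none of the 403 windows of 98 bases, the length of the read, was identical between members, and the closest pair of windows, between *Reg1* and *Reg2*, differed at 11 positions.

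The 250 bases before the RefSeq start (GRCm38.p6) are shown for the 4 members with enough UMIs to compare between groups. Sequences are written 5′ to 3′ on the strand of the gene, from chr6:78425733-78425982 (*Reg1*, plus), chr6:78404905-78405154 (*Reg2*, plus), chr6:78370635-78370884 (*Reg3b*, plus) and chr6:78378866-78379115 (*Reg3d*, minus). Capitals mark matches to TATAAA, to CACCTG and to TTCNNNGAA, the letters of a TATA box, of an E-box and of a STAT site, searched on both strands.
Reg1: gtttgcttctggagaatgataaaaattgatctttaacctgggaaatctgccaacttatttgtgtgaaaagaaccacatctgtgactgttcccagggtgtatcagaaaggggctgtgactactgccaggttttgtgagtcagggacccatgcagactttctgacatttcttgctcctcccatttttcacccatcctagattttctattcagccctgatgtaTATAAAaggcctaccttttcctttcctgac
Reg2: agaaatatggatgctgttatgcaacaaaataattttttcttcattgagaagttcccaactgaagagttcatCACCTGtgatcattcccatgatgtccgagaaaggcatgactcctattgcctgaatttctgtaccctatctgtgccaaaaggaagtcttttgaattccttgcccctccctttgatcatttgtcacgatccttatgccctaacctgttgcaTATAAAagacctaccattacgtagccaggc
Reg3b: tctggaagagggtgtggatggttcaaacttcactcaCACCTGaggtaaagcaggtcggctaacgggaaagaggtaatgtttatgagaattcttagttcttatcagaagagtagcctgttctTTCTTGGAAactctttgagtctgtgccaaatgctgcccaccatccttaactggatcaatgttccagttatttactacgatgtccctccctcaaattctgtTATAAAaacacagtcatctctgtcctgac
Reg3d: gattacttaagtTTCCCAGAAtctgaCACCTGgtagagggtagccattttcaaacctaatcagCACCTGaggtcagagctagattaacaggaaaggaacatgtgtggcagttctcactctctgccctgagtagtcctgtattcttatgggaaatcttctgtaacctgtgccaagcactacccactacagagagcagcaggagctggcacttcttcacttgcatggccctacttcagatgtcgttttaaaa
TATAAA stood 30 to 25 bases before the start in *Reg1* and *Reg2*, 29 to 24 in *Reg3b* and 27 to 22 in *Reg3g*, and was absent from the windows of *Reg3a* and *Reg3d*. It occurred in 12.4% of the 32851 mouse promoters of this length. CACCTG was in the windows of *Reg2*, *Reg3a*, *Reg3b* and *Reg3d*, against 17.2% of all promoters, and TTCNNNGAA in those of *Reg3b* and *Reg3d*, against 7.02%. No motif was shared by *Reg2* and *Reg3b* and absent from both *Reg1* and *Reg3d*. These are matches of letters, and binding was not measured. Between members, the upstream sequence of *Reg3g* was 70.1% identical to that of *Reg3a* and 70.0% to that of *Reg3b*, and *Reg1* and *Reg2*, the closest pair by coding sequence, shared 60.3%.

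Most Reg transcripts were in the acinar classes, and *Reg1* made up nearly all of them. Of the 46075 *Reg1* UMIs in the vehicle library 89.6% were in the acinar classes, and of the 51036 in the FAKi library 88.2%. The acinar share was 81.8% of 976 and 89.4% of 605 UMIs for *Reg2*, 82.7% of 415 and 85.9% of 256 for *Reg3b*, and 88.6% of 201 and 87.9% of 199 for *Reg3d*. *Reg3a* and *Reg3g* were near the limit of detection. The acinar share was 93.5% of 31 and 75.0% of 20 UMIs for *Reg3a*, and 43.5% of 23 and 82.6% of 23 for *Reg3g*, so that most vehicle *Reg3g* UMIs lay outside the acinar classes. Within acinar class 2 the family took 2.94% of all vehicle UMIs and 2.62% of all FAKi UMIs, of which *Reg1* was 97.0% and 97.8%.

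*Reg1*, the stone protein gene, was detected in every class 2 cell. Its class 2 level was 28579 CPM (28288 to 28873) with vehicle and 25645 CPM (25390 to 25902) with FAKi. Single vehicle cells ranged from 10248 to 60659 CPM around a median of 23831, and FAKi cells from 8311 to 90308 around 22546, so the 2 libraries overlapped, with similar medians, and some FAKi cells lay above the highest and below the lowest vehicle cell. In class 1 the levels were 12607 and 8675 CPM, with a *Reg1* UMI in 99.4% and 98.0% of cells.

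*Reg2* was the next most abundant member and far less even. In class 2 it reached 531 CPM (492 to 572) in the vehicle library and 322 CPM (294 to 352) in the FAKi library, but the median vehicle cell had only 21.0 CPM and the highest 15656, against a median of 124 and a highest of 2810 CPM among FAKi cells. At least 1 *Reg2* UMI was found in 51.2% of vehicle and 61.4% of FAKi cells. The class 1 levels were 323 CPM in vehicle and 76.2 CPM in FAKi, with *Reg2* in 28.6% and 14.5% of cells. The library with the higher total thus had the lower median cell in class 2, while in class 1 vehicle was higher in both level and share of cells.

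*Reg3b* showed the same unevenness. Its class 2 level was 192 CPM (169 to 217) in vehicle and 131 CPM (114 to 151) in FAKi, with a UMI in 37.2% and 47.4% of cells. In class 1 it was 272 CPM in vehicle and 29.9 CPM in FAKi, in 25.5% and 6.06% of cells.

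*Reg3d* was spread over many cells. It stood at 123 CPM (104 to 143) and 103 CPM (87.3 to 120) in class 2, with a UMI in 57.0% and 56.1% of cells, and at 56.7 and 27.2 CPM in class 1, where 20 UMIs were counted in each library. *Reg3a* had 17.8 and 9.95 CPM in class 2 and *Reg3g* 7.76 and 12.6 CPM. In class 1, *Reg3a* had 6 UMIs in vehicle and 0 in FAKi, and *Reg3g* had 0 in 161 vehicle cells and 0 in 297 FAKi cells, which allows shares of up to 1.86% and 1.01% of cells with a UMI when 3 counts are taken as the limit, or up to 2.27% and 1.23% by the exact binomial interval.

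**Figure D1:**
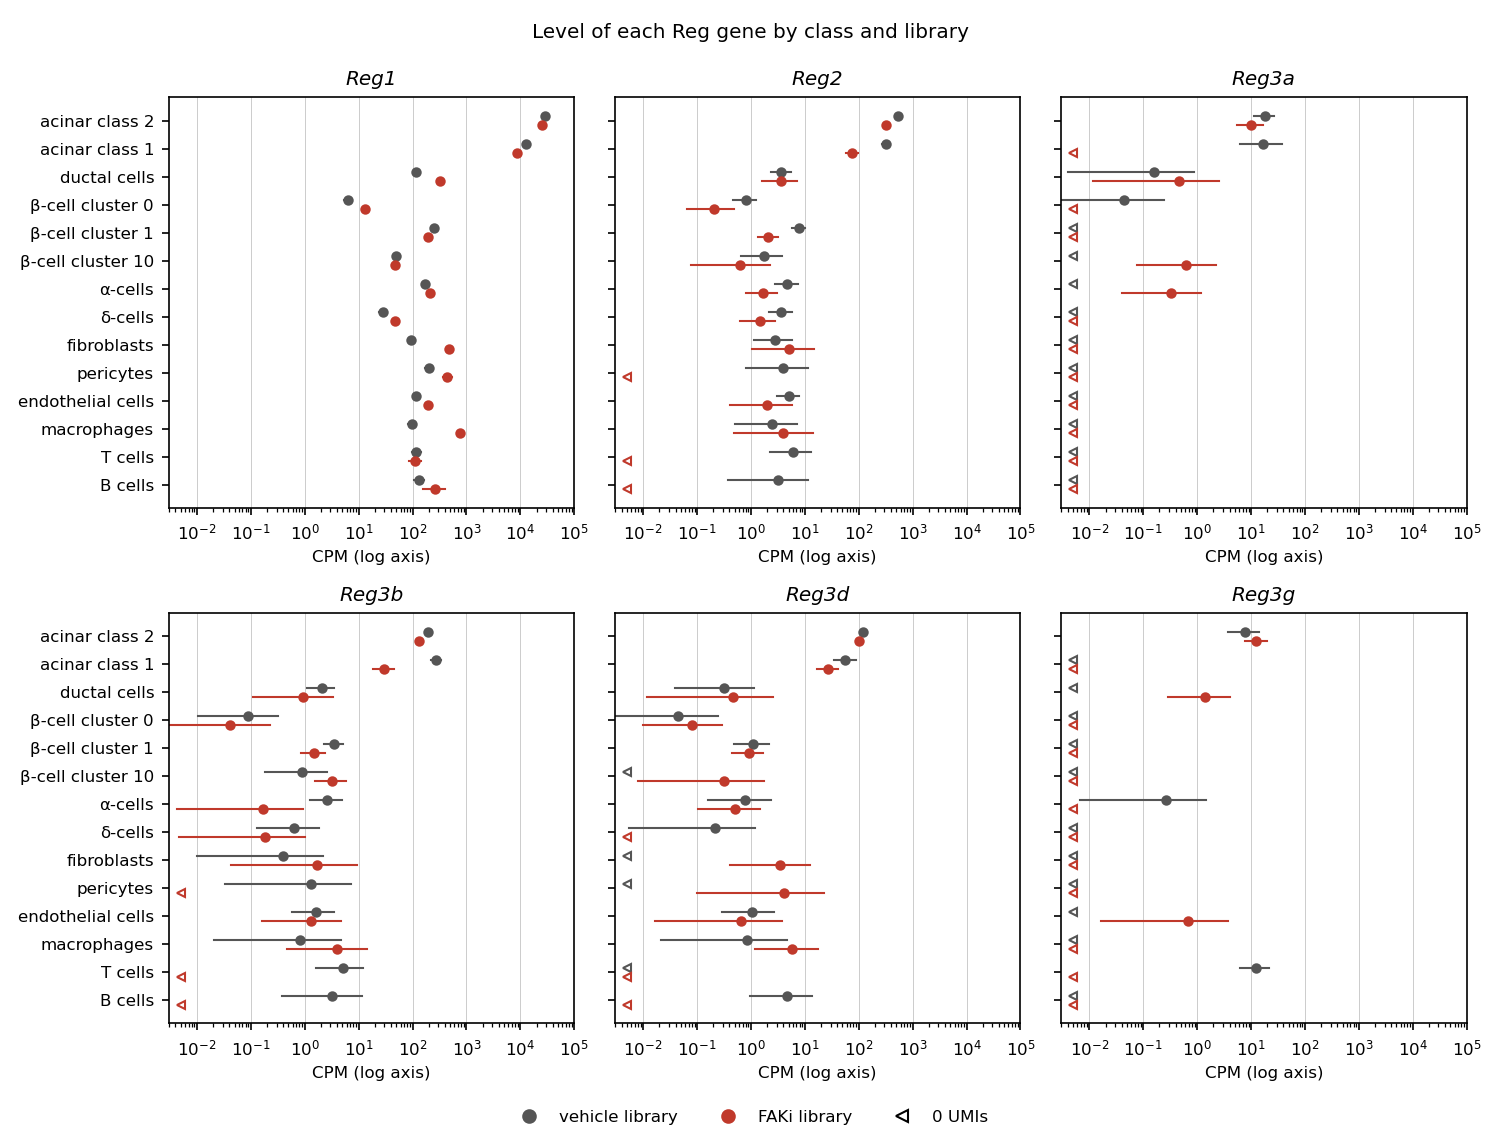
Level of each Reg gene (CPM, log axis) in 14 cell classes of the vehicle (grey) and FAKi (red) library, with 95% counting intervals as bars and open triangles for classes with 0 UMIs. The acinar classes stand far to the right for *Reg1*, at 8675 to 28579 CPM, and the same 2 classes lead for *Reg2*, *Reg3b* and *Reg3d*.

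**Figure D2:**
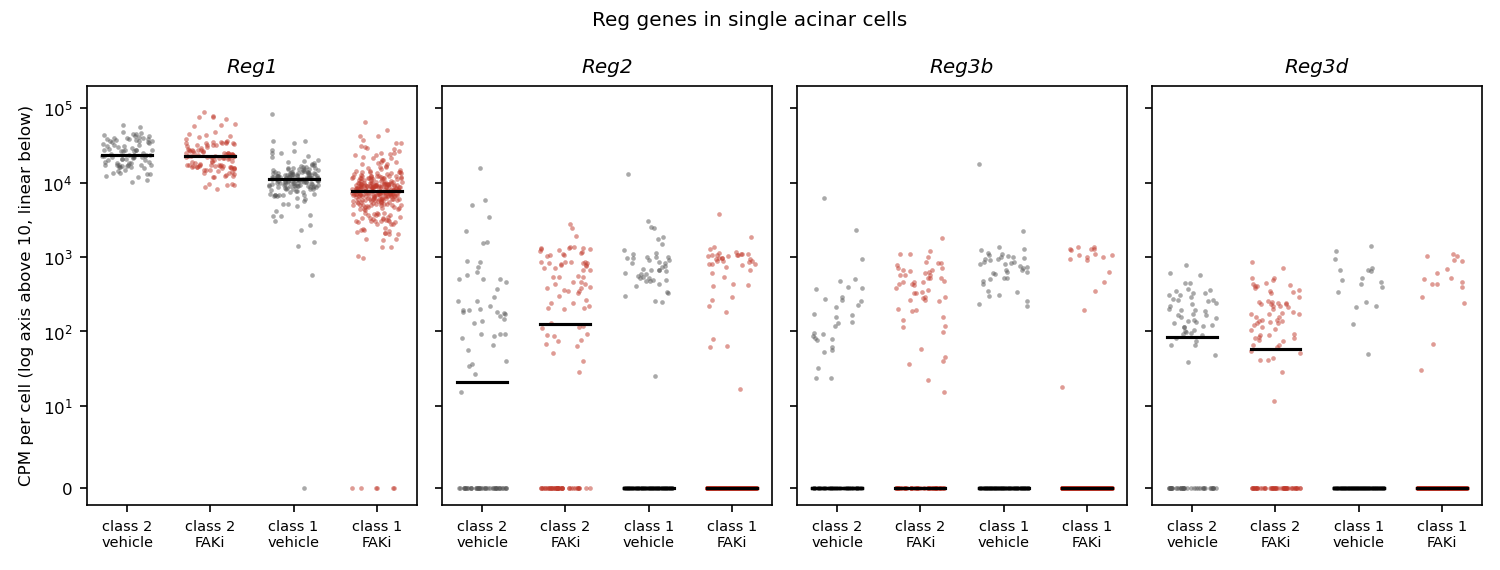
CPM of 4 Reg genes in single acinar cells (log axis above 10, linear below), by class and library, each point a cell and each bar the median cell. *Reg1* is high in nearly all cells, *Reg2* and *Reg3b* are absent from many cells and reach 15656 and 6313 CPM in single vehicle class 2 cells, and *Reg3d* has no such extreme cell.

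Acinar cells were sampled at different depths, so shares of cells were also compared after thinning each cell to 1000 UMIs. In class 2, thinned cells with *Reg2* were 17.4% (10.1 to 27.1) of vehicle and 26.3% (18.5 to 35.4) of FAKi cells, and with *Reg3b* 8.14% and 15.8%. The intervals overlapped for *Reg2* and *Reg3b* alike. In class 1, where 26 vehicle and 89 FAKi cells were too shallow and were left out, *Reg2* was in 23.7% (16.8 to 31.8) of vehicle and 8.65% (5.21 to 13.3) of FAKi cells, and *Reg3b* in 14.1% (8.69 to 21.1) and 2.40% (0.785 to 5.52), with no overlap of the intervals for either gene.

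A few vehicle cells carried most of the *Reg2* and *Reg3b* UMIs of class 2. The cells were singled out after their values were seen. A single vehicle cell of 24016 UMIs held 376 of the 684 *Reg2* UMIs, together with 15 of 23 *Reg3a*, 7 of 10 *Reg3g*, 23 *Reg3b* and 666 *Reg1* UMIs. Another, of 26454 UMIs, held 167 of the 247 *Reg3b* UMIs along with 134 *Reg2* and 1060 *Reg1* UMIs. Neither was called a doublet, and enzyme transcripts made up 14999 and 18244 of their UMIs, as in acinar cells generally. The 3 vehicle cells with most *Reg2* held 82.5% of it and the 3 with most *Reg3b* 78.9%, against 29.1% and 22.2% in the FAKi library. Put the other way, 50% of the *Reg2* UMIs lay in 1 vehicle cell but 9 FAKi cells, and 50% of *Reg3b* in 1 and 10 cells, while for *Reg3d* it took 10 and 12 cells and for *Reg1* 10 and 17. A class 1 vehicle cell of only 1354 UMIs was of the same kind, with 18 *Reg2*, 24 *Reg3b*, 5 *Reg3a* and 114 *Reg1* UMIs.

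The share of class 2 cells with several UMIs was also counted. Cells with at least 5 UMIs of *Reg2* and the *Reg3* genes together, a limit chosen after values were seen, were 24 of 86 vehicle cells (27.9%, 18.8 to 38.6) and 53 of 114 FAKi cells (46.5%, 37.1 to 56.1) at similar depth, with intervals that overlap slightly. The count has no upper limit and so includes the cells with the most UMIs. In class 1 they were 8 of 161 (4.97%, 2.17 to 9.56) and 2 of 297 (0.673%, 0.0817 to 2.41). The variance over the mean of thinned counts in class 2, which is about 1 for counting alone, was 7.69 in vehicle and 1.66 in FAKi for *Reg2*, 4.13 and 1.38 for *Reg3b*, and 0.882 and 0.920 for *Reg3d*. For *Reg1* it went the other way, 4.59 in vehicle and 10.7 in FAKi.

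**Figure D3:**
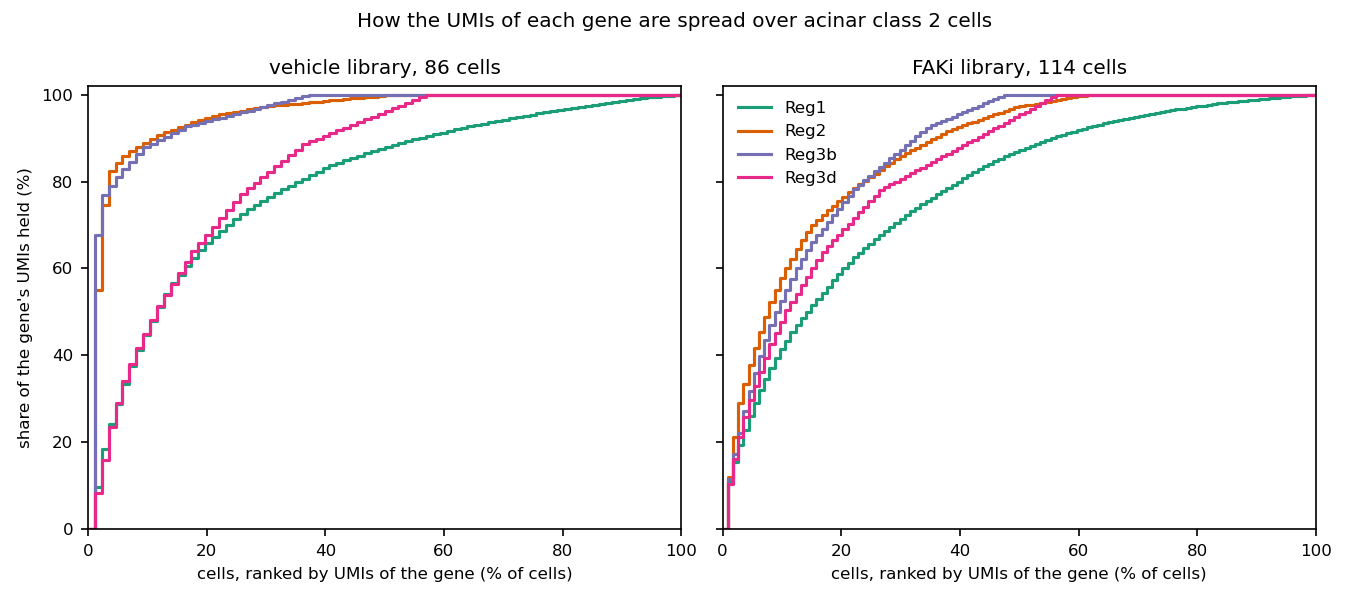
Share of the UMIs of *Reg1*, *Reg2*, *Reg3b* and *Reg3d* (%) held by class 2 cells ranked by their UMIs (% of cells), in the vehicle (left, 86 cells) and FAKi (right, 114 cells) library. The *Reg2* and *Reg3b* curves jump to 55.0% and 67.6% at the leading vehicle cell, whereas the 4 curves lie close together in the FAKi library.

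Across single class 2 cells of the FAKi library, *Reg2* and *Reg3b* varied together, with a Spearman correlation of 0.447 over 114 cells, and *Reg3b* with *Reg3a* (0.439), *Reg3g* (0.400) and *Reg1* (0.384). *Reg3d* followed *Reg2* (0.046) and *Reg3b* (0.132) little. The same pairs gave 0.152, 0.109, 0.176, 0.216, 0.123 and 0.133 over 86 vehicle cells. *Reg1* with *Reg2* gave 0.425 in FAKi and 0.069 in vehicle, and *Reg3a* with *Reg3g* 0.417 and 0.318. *Reg3d* with *Reg1* gave 0.240 and -0.072, and with *Reg3a* 0.241 and 0.083. The pair of *Reg2* and *Reg3b* was thus close in value to other pairs, that of *Reg1* and *Reg2* among them. These correlations describe cells of 1 library that share its depth and preparation. A *Reg3b* UMI was found in 61.4% (49.0 to 72.8) of FAKi class 2 cells that had *Reg2* and in 25.0% (13.2 to 40.3) of those without it, whose median depths were 8520.5 and 7008 UMIs. In vehicle the shares were 40.9% (26.3 to 56.8) and 33.3% (19.6 to 49.5), at 8157.5 and 7872.5 UMIs. Within class 2 the correlation of *Reg1* with the summed digestive enzymes was -0.014 in vehicle and -0.219 in FAKi. In class 1 it was 0.528 and 0.559 over 135 and 208 cells. Both quantities are shares of the same cell total, and the enzymes took 70.2% and 69.8% of class 2 UMIs. In class 1 depth correlated with *Reg1* at 0.386 and 0.202 and with the enzymes at 0.449 and 0.333. The part of shared totals, depth and β-cell transcripts in this contrast between classes was not tested.

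The first comparison was FAKi with vehicle in acinar class 2, the deeper acinar class. Every member except *Reg3g* had a lower CPM in the FAKi library, though by less than 2-fold. The FAKi level of *Reg1* was 0.897 (0.885 to 0.910) of the vehicle level. For *Reg2* it was 0.606 (0.538 to 0.682), from 485 against 684 UMIs, and for *Reg3b* 0.685 (0.565 to 0.829), from 198 against 247. The intervals of *Reg3d*, at 0.839 (0.668 to 1.05), *Reg3a*, at 0.557 (0.270 to 1.11), and *Reg3g*, at 1.62 (0.718 to 3.91), included 1. None of the 6 members was past 2-fold in either direction, beside 2.83% of the 2648 genes with at least 20 UMIs that were lower and 5.78% that were higher by over 2-fold. The median log2 ratio, with 1 CPM added, was -0.40 over the members and 0.10 over all these genes. The median over the members includes *Reg2*, *Reg3a* and *Reg3b*, whose ratios turned without single cells, as given below. It was not recomputed without those cells, so no direction of the family is drawn from it.

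The direction of *Reg2* and *Reg3b* in class 2 rested on single cells. Without the cell holding the most UMIs of the gene in each library, *Reg2* was 300.5 CPM in FAKi and 244 CPM in vehicle, a ratio of 1.23 (1.06 to 1.43), and *Reg3b* 126 and 63.4 CPM, a ratio of 1.99 (1.52 to 2.62). Leaving out 3 such cells per library, an alternative added after the data were seen, gave 2.43 (1.97 to 3.02) and 2.59 (1.88 to 3.62). *Reg3g* moved to 4.21 (1.19 to 22.7) without 1 cell, from 15 against 3 UMIs, and *Reg3a* to 1.28 (0.480 to 3.60). *Reg1* and *Reg3d* did not turn, at 0.862 and 0.813 without 1 cell and 0.882 and 0.784 without 3. *Reg3b* was also higher in FAKi, at 1.29, as a mean over cells that gives each cell the same weight, and at 1.39 after thinning to 1000 UMIs, while *Reg2* stayed lower under both, at 0.787 and 0.803.

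In acinar class 1 *Reg1*, *Reg2*, *Reg3b* and *Reg3d* were lower in the FAKi library, and leaving out single cells did not turn this, while *Reg3g* had no UMI in either library. *Reg1* stood at 0.688 (0.662 to 0.715) of the vehicle level. *Reg2* stood at 0.236 (0.168 to 0.328), from 56 against 114 UMIs, and *Reg3b* at 0.110 (0.0659 to 0.176), from 22 against 96. *Reg3d*, at 0.480 (0.245 to 0.941), rested on 20 UMIs in each library. *Reg3a* had 0 against 6 UMIs, with an interval of the ratio that reached 0.408, and 5 of the 6 vehicle UMIs came from 1 cell, so no direction is drawn for it. Of the 4 members with at least 20 UMIs, 3 were lower by over 2-fold, beside 3.24% of 2039 genes (8.68% were higher), and the median log2 ratio was -1.55 over the members against 0.09 over all genes. Without the cell with the most UMIs per library the ratios were 0.661 for *Reg1*, 0.250 (0.174 to 0.355) for *Reg2*, 0.133 (0.0769 to 0.221) for *Reg3b* and 0.480 (0.232 to 0.987) for *Reg3d*.

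In FAKi class 1 digestive enzymes were also lower, while endocrine markers were higher. The part of the endocrine markers in the class 1 result was not tested. The 18 enzyme genes took 48.8% of class 1 UMIs in vehicle and 39.0% in FAKi, a ratio of 0.798 (0.793 to 0.803), while β-cell markers were higher in FAKi, as given above. The α-cell markers went from 2987 to 10071 CPM, the δ-cell markers from 1323 to 2651 CPM and the PP-cell marker from 1442 to 2786 CPM. Set against enzyme UMIs instead of all UMIs, the class 1 ratios were 0.862 (0.830 to 0.896) for *Reg1*, 0.296 (0.211 to 0.411) for *Reg2*, 0.138 (0.0828 to 0.221) for *Reg3b* and 0.602 (0.307 to 1.18) for *Reg3d*. *Reg2* and *Reg3b* thus stayed lower by over 2-fold per enzyme UMI, while *Reg1* came nearer to the vehicle value. In class 2 the enzyme share was 70.2% and 69.8%, and the ratios per enzyme UMI were 0.902, 0.610, 0.689 and 0.843 for the same genes. Here too *Reg2* and *Reg3b* turned without 1 cell per library, to 1.25 and 2.01, whereas in class 1 they were 0.313 and 0.167 without it.

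**Figure D4:**
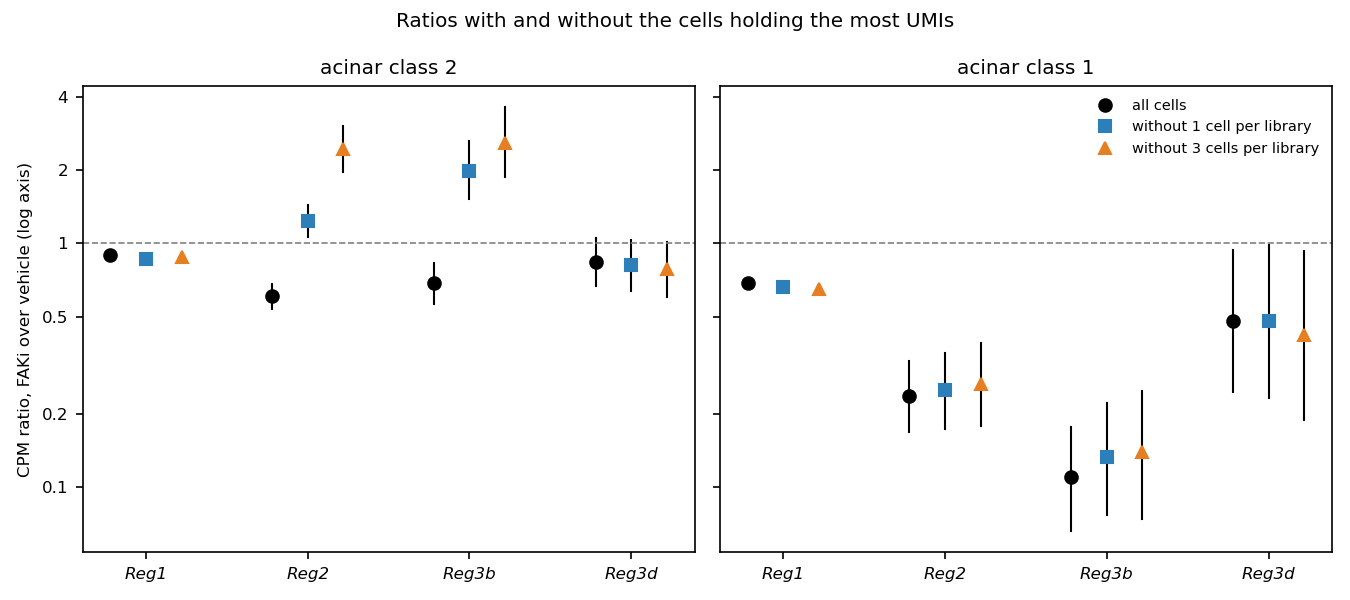
Ratio of FAKi to vehicle CPM (log axis) of *Reg1*, *Reg2*, *Reg3b* and *Reg3d* in acinar class 2 (left) and class 1 (right), over all cells (circles) and without the 1 (squares) or 3 (triangles) cells per library with the most UMIs of the gene; bars are 95% counting intervals. *Reg2* and *Reg3b* cross the line of equal levels in class 2, from 0.606 and 0.685 to 2.43 and 2.59, and stay below it in class 1.

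Class 1 was next compared with class 2 within each library. *Reg1* was lower in class 1, at 0.441 (0.428 to 0.455) of the class 2 level in vehicle and 0.338 (0.329 to 0.347) in FAKi. *Reg3d* was also lower, at 0.462 (0.275 to 0.738) and 0.265 (0.157 to 0.423). *Reg2* stood at 0.609 (0.495 to 0.743) in vehicle, which turned to 1.12 without 1 cell per class and 2.15 without 3, and at 0.237 (0.176 to 0.313) in FAKi. *Reg3b* was higher in vehicle class 1 than class 2, at 1.42 (1.11 to 1.80), although this turned to 0.933 with the 20 most abundant genes left out of the totals, 0.894 with median-of-ratios scaling and 0.571 in cells with at least 1000 genes. Leaving out the cells with most *Reg3b* moved it the other way, to 3.23 without 1 cell per class and 3.56 without 3. In the FAKi library it was lower, at 0.228 (0.140 to 0.355). Neither *Reg3a* nor *Reg3g* had a UMI in FAKi class 1, against 15 and 19 in class 2, with intervals of the ratio that reached 0.572 and 0.440.

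In vehicle 2 of 5 members with enough UMIs were lower by over 2-fold in class 1, beside 4.51% of 1819 genes, and in FAKi 4 of 4, beside 3.74% of 2890 genes. Higher by over 2-fold were 35.8% and 40.1% of these genes and no member. The median log2 ratio was -0.71 and -1.97 over the members and 0.64 and 0.73 over all genes, so the scale of this comparison is itself shifted upward. Among the 18 enzymes, 2 in vehicle and 5 in FAKi were lower by over 2-fold, none was higher, and *Pnliprp1* and *Amy2a5* were lower in both, at 0.436 and 0.415 in vehicle and 0.499 and 0.440 in FAKi.

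Per 1000 enzyme UMIs, class 2 carried 40.7 *Reg1* UMIs in vehicle and 36.7 in FAKi. The 12 non-acinar classes lay between 18.8 and 27.5 in vehicle and between 17.0 and 28.9 in FAKi, and class 1 was inside that band at 25.8 and 22.3, close to the 23.0 and 22.9 of endothelial and immune cells, which should lack the gene. By this measure class 1 was nearer to the non-acinar classes than to class 2. *Reg3b* differed from this, with 0.557 UMIs per 1000 in vehicle class 1 against 0.273 in class 2, a ratio of 2.04 (1.59 to 2.59), and 0.0769 against 0.188 in FAKi, a ratio of 0.408 (0.250 to 0.636). *Reg2* per 1000 was 0.662 and 0.196 in class 1 and 0.756 and 0.461 in class 2. The vehicle class 2 values of both genes rested on 1 cell. Without the cell with most UMIs of the gene in each class, the vehicle ratio of class 1 to class 2 went from 2.04 to 4.65 for *Reg3b* and from 0.875 to 1.61 for *Reg2*.

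**Figure D5:**
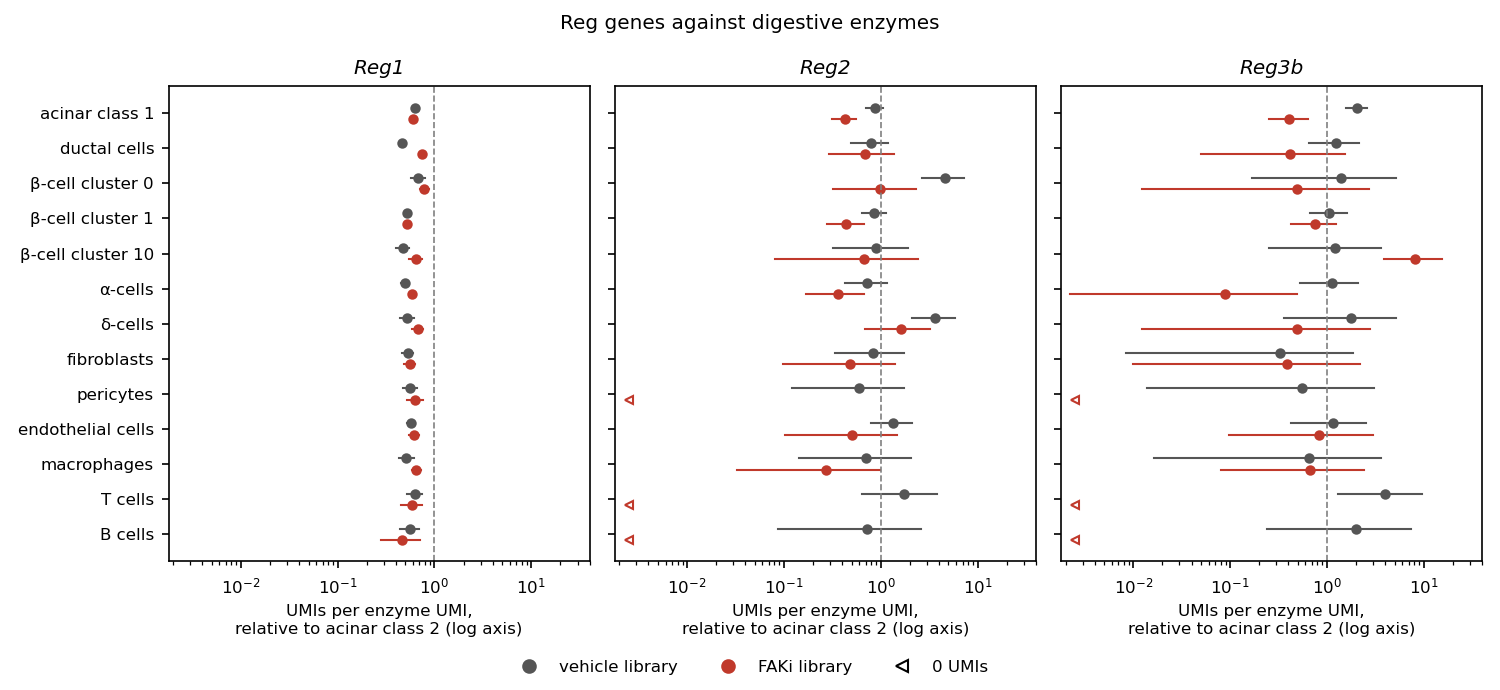
UMIs of *Reg1*, *Reg2* and *Reg3b* per digestive enzyme UMI in each class, relative to acinar class 2 of the same library (log axis, dashed line at 1), for the vehicle (grey) and FAKi (red) library with 95% counting intervals; open triangles mark 0 UMIs. All *Reg1* points lie left of the line, while vehicle *Reg2* lies right of it in β-cell cluster 0, at 4.58, and δ-cells, at 3.61.

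Outside the acinar classes *Reg1* was found at low level in every class. At least 1 *Reg1* UMI was in 21.4% of vehicle and 39.9% of FAKi endothelial and immune cells, at median depths of 5186 and 4883 UMIs, and these shares serve as the background of free RNA. Over all non-acinar cells the level was 82.9 CPM in vehicle and 108 CPM in FAKi, a ratio of 1.30 (1.25 to 1.35), and the enzyme list gave 1.27 (1.26 to 1.28). In endothelial and immune cells the ratios were 2.49 (2.25 to 2.76) and 2.50 (2.46 to 2.54), but 1 FAKi macrophage droplet held 311 of their 757 *Reg1* and 13175 of their 33024 enzyme UMIs. Without the droplet with most *Reg1* in each library, an alternative added after the data were seen, the ratios were 1.53 (1.36 to 1.72) and 1.56 (1.53 to 1.59). The shares of these cells with *Reg1* were then 21.3% and 39.7%. *Reg1* and the enzymes thus differed between libraries by similar amounts with and without that droplet. The 28 annotated T cells of the FAKi library carried 456507 CPM of β-cell markers and 108 CPM of T-cell markers, against 84294 and 1516 CPM in vehicle, so their label is poorly met. The 9 annotated B cells of the FAKi library carried 756 CPM of B-cell and 769 CPM of macrophage markers, against 5585 and 20.5 CPM in vehicle, so theirs is poorly met too. With the T cells left out as well as that droplet, the *Reg1* and enzyme ratios were 1.70 (1.49 to 1.93) and 1.68 (1.65 to 1.72), and with the B cells also left out they were 1.71 (1.495 to 1.96) and 1.67 (1.63 to 1.70).

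By class, the vehicle order of *Reg1* below the acinar cells began with β-cell cluster 1, at 254 CPM (243 to 266), then pericytes, at 199 CPM, and α-cells, at 173 CPM, whose intervals overlapped. B cells, T cells, endothelial cells, ductal cells, macrophages and fibroblasts followed between 131 and 94.1 CPM, each overlapping the next. β-cell cluster 10, at 50.3 CPM, δ-cells, at 28.3 CPM, and β-cell cluster 0, at 6.31 CPM, came last and each differed from the next beyond counting error. In the FAKi library macrophages, at 749 CPM, fibroblasts, at 472 CPM, and pericytes, at 443 CPM, led, followed by ductal cells, at 323 CPM, and β-cell cluster 0 was again lowest, at 12.9 CPM. Without the cell with most *Reg1* in each class, this FAKi order changed. Pericytes then led at 398 CPM, before fibroblasts at 232, α-cells at 192, endothelial cells at 185 and β-cell cluster 1 at 184 CPM. B cells, macrophages and ductal cells followed at 146, 145 and 133 CPM.

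Several of these FAKi levels were set by 1 cell. In macrophages 311 of 381 *Reg1* UMIs were in a cell whose 24610 UMIs included 13175 enzyme UMIs, in ductal cells 416 of 702 in a cell with 7799 enzyme UMIs of 17804, and in fibroblasts 144 of 276 in a cell with 7471 of 14731. Without 1 cell per library the FAKi to vehicle ratio went from 7.62 to 1.69 in macrophages, from 2.80 to 1.20 in ductal cells, from 5.02 to 2.66 in fibroblasts, from 1.99 to 1.51 in B cells and from 0.934 to 0.548 in T cells, both with the poorly met FAKi labels given above. Without 3 cells per library the macrophage ratio was 1.32 (0.880 to 1.95) and the ductal ratio 1.11 (0.957 to 1.29), both with intervals that included 1, while fibroblasts were at 1.80 (1.36 to 2.37). Over all cells annotated as fibroblasts, β-cell markers stood at 66782 CPM in vehicle and 133073 CPM in FAKi. Their acinar markers stood at 1410 and 6847 CPM and their mesenchymal markers at 25077 and 16732 CPM. Macrophages had β-cell markers at 115195 and 119668 CPM, δ-cell markers at 143 and 3186 CPM and macrophage markers at 11761 and 15157 CPM. In ductal cells β-cell markers, at 24326 and 53949 CPM, exceeded ductal markers, at 19831 and 19685 CPM. The part of these markers in the *Reg1* differences was not tested. Without 1 cell the ratio stayed within a narrow range in β-cell cluster 0 (2.05 and 2.08), pericytes (2.22 and 2.28), endothelial cells (1.69 and 1.69), δ-cells (1.69 and 1.79), α-cells (1.24 and 1.18) and β-cell cluster 1 (0.775 and 0.770). In pericytes acinar markers stood at 2728 CPM in vehicle and 6239 CPM in FAKi, and α-cell markers at 6413 and 1265 CPM. Endothelial cells had acinar markers at 1561 and 2753 CPM, α-cell markers at 912 and 6137 CPM and β-cell markers at 54538 and 80379 CPM. The part of these markers in the 2 *Reg1* ratios was not tested. Over 2-fold differences had a background of 2.87% of genes higher in macrophages, 2.35% in ductal cells, 4.03% in fibroblasts, 3.0% in pericytes and 1.3% in β-cell cluster 0.

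*Reg2* outside acinar cells went against *Reg1* and the enzymes. It had 178 UMIs in vehicle and 64 in FAKi, 3.08 and 1.15 CPM, a ratio of 0.374 (0.277 to 0.501). The interval lay below 1 in 4 of 12 classes and above 1 in none. These were β-cell cluster 0 (0.258), β-cell cluster 1 (0.273), α-cells (0.350) and δ-cells (0.397). They rested on few UMIs, in that order 5, 23, 10 and 8 in FAKi against 18, 56, 18 and 17 in vehicle. In the class annotated as δ-cells the 1 PP-cell marker, at 144939 CPM in vehicle and 141153 CPM in FAKi, exceeded the 4 δ-cell markers summed, at 112519 and 110977 CPM. The PP-cell marker differed between libraries in the α-cell class, at 45503 CPM in vehicle and 16442 CPM in FAKi, and in β-cell cluster 1, at 297 and 92.3 CPM, where the α-cell markers stood at 459 and 1369 CPM. The part of these markers in the *Reg2* differences was not tested. All 4 ratios were also below 1 without the leading cell. These 4 ratios were past 2-fold, beside 1.63%, 1.93%, 1.27% and 1.77% of genes that were lower in those classes. *Reg3b* likewise had a ratio of 0.520 (0.339 to 0.787), from 36 against 72 UMIs, and *Reg3d* one of 1.09 (0.587 to 2.01). In vehicle, *Reg2* per enzyme UMI was 4.58 (2.70 to 7.30) times the class 2 value in β-cell cluster 0, from 18 UMIs, and 3.61 (2.09 to 5.83) times in δ-cells, from 17 UMIs. These multiples depend on the class 2 cell that held 376 *Reg2* UMIs, and without it they were 10.0 (5.85 to 16.1) and 7.89 (4.54 to 12.8). The corresponding FAKi ratios, 0.996 (0.322 to 2.34) and 1.62 (0.693 to 3.21), had intervals that included 1.

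Most remaining *Reg3g* outside acinar cells came from 1 droplet. All 12 *Reg3g* UMIs of vehicle T cells were in a droplet of 28128 UMIs that also had 3 *Reg3b* and 5 *Reg1* UMIs, 126 UMIs of *Krt8*, 95 of *Krt19*, 86 of *Lypd8* and 74 of *Lgals4*, and none of *Cd3e*, *Cd3g* or *Trac*. It thus lacked these T-cell markers of its annotated class, and the other T-cell markers were not looked at in it. All 10 *Reg3b* UMIs of β-cell cluster 10 in the FAKi library were in a droplet of 18687 UMIs with 6365 *Ins2* and 38 *Fabp2* UMIs. Of 8 genes of the gut lining, chosen after these droplets were seen, the droplets had 269 and 87 UMIs. No acinar cell reached 10 UMIs of these genes, and 4 of 498 vehicle ductal cells did, with 1 UMI of *Reg2* or a *Reg3* gene between them.

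Of 30 genes of the Reg receptor, cytokine signalling and other injury or defence genes, 10 had at least 20 UMIs in class 2 and none of them differed by over 2-fold between libraries, and of 9 in class 1 none did. Of all genes 5.78% were higher and 2.83% lower in class 2, and 8.68% and 3.24% in class 1, so a count of none in lists of this size is near the background. The 5 ligand genes listed were too low to compare. *Extl3*, the proposed receptor, was at 18.6 CPM in vehicle and 16.6 CPM in FAKi class 2, a ratio of 0.890 (0.488 to 1.63), from 24 and 25 UMIs. *Il6ra*, a cytokine receptor subunit, had 9 and 3 UMIs, a ratio of 0.285 (0.0496 to 1.14), *Stat3*, the transcription factor of these cytokines, 4 and 9, a ratio of 1.92 (0.537 to 8.55), and *Il22ra1* had none. Between the acinar classes, 2 of 10 pathway genes in vehicle and 3 of 11 in FAKi were higher in class 1 by over 2-fold, beside 35.8% and 40.1% of all genes, and 3 and 4 were lower, beside 4.51% and 3.74%, *Extl3* among them at 0.456 and 0.410 with intervals that included 1. *Dmbt1*, a secreted defence protein, was lower in class 1 in both libraries, at 0.303 (0.256 to 0.358) in vehicle and 0.425 (0.376 to 0.480) in FAKi, and *Spink1*, the trypsin inhibitor, at 0.491 (0.452 to 0.533), and *Tff2*, a trefoil peptide, at 0.492 (0.467 to 0.519), in FAKi. *Jak1*, at 3.65 (1.61 to 8.26) and 2.56 (1.12 to 6.0), and *Socs3*, an inhibitor of cytokine signalling, at 2.30 (1.28 to 4.02) and 2.23 (1.46 to 3.43), were higher. *Stat3* was higher in class 1 at 5.48 (1.30 to 26.4), from 6 against 4 UMIs, and 3.65 (1.52 to 9.36), from 16 against 9, *Il6ra* at 7.52 (1.99 to 42.0) in FAKi, from 11 against 3, and *Lifr*, the receptor of leukaemia inhibitory factor, was lower at 0.187 (0.0219 to 0.723) in vehicle.

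The genes whose levels followed each member most closely were found over the 12 annotated cell types in each of 2 libraries, 24 points in all. By Pearson correlation of log2(CPM + 1) among 14092 genes, *Reg1* was most like *Prss2* (0.998), *Rnase1* (0.997) and *Sycn* (0.996). *Reg2* was most like *Gal* (0.943), *Tmed11* (0.942) and *Ptf1a* (0.938), and *Reg3b* like *Ptf1a* (0.944), *Gal* (0.944) and *Slc39a5* (0.936). *Reg3d* was nearest to *Pla2g1b* (0.954), *Klk1b5* (0.947) and *Klk1* (0.941). *Reg3a* and *Reg3g*, with 51 and 46 UMIs in all, gave lower values. *Reg3a* was nearest to *Ptf1a* (0.885), *Klk1b5* (0.852) and *Tmed11* (0.851), and *Reg3g* to *Fbp2* (0.605), *Elane* (0.605) and *Tmem97* (0.594). Between members the closest pair was *Reg2* and *Reg3b* (0.976), and *Reg1* was closest to *Reg3d* (0.943). The points share the 2 libraries, so the values are descriptions. Outside the acinar classes *Reg2* was at most 7.76 CPM and *Reg3b* at most 5.07 CPM in any class. Their correlations therefore include the contrast between acinar cells and classes near the limit of detection. The likeness was not recomputed within acinar cells.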

How the data were processed

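Islet cells had been captured by 3′ droplet chemistry and, per the submitters' processing notes, aligned to mm10 with Cell Ranger and analysed with Seurat 3.1. The table deposited by the authors holds whole-number UMI counts per gene and cell, and their metadata hold the library, cell type, cluster and the mitochondrial percent per cell that the authors computed. The 8 samples are lanes of 2 libraries and were not separable in the files.

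Counts were summed per class and library and divided by all UMIs (CPM), in Python 3.11.15 with pandas 2.3.3, numpy 2.4.6 and scipy 1.17.1; doublets were called with scrublet in scanpy 1.11.5 and kept. Levels carry exact Poisson intervals, shares of cells Clopper-Pearson intervals and ratios exact conditional binomial intervals, all at 95%. Ratios over all genes needed at least 20 UMIs in the groups compared, a fold of 2 marked a gene as past the limit, and no p-value was computed. Log2 ratios added 1 CPM, which understates differences of low genes. The ratio interval and the 2-fold limit were tried on simulated counts that held counting error only. Counts as uneven over cells as those of *Reg2* and *Reg3b* were not simulated.

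The members and all gene lists were chosen with earlier results of these data known. All 6 members are named, with for each the 3 genes most like it, and from a list of 30 pathway genes those past 2-fold with an interval that leaves out 1 (up to 6 per comparison), besides *Extl3*, *Il22ra1*, *Il6ra* and *Stat3*. Up to 10 alternatives per ratio were tried. Promoter and gene positions come from RefSeq and GENCODE tables of GRCm38, and Biopython 1.88 compared sequences. Free RNA was not removed.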

Additional observations from a re-analysis of the deposited data

Results flagged for a closer look

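*Reg1* differed between libraries in opposite directions in different classes, with 1 library per condition, and the difference between classes was not tested. FAKi to vehicle ratios above 1, with counting intervals that left out 1, were found in ductal cells (2.80), β-cell cluster 0 (2.05), α-cells (1.24), δ-cells (1.69), fibroblasts (5.02), pericytes (2.22), endothelial cells (1.69), macrophages (7.62) and B cells (1.99). Ratios below 1 with such intervals were found in acinar class 2 (0.897), acinar class 1 (0.688) and β-cell cluster 1 (0.775). β-cell cluster 10 (0.957, 0.764 to 1.20) and T cells (0.934, 0.676 to 1.28) were below 1 with intervals that included 1. Without the cell with most *Reg1* in each library the intervals lay above 1 in 8 and below 1 in 2 of the 12 non-acinar classes, against 9 and 1 with all cells. Without 3 cells they lay above 1 in 6 and below 1 in 2, and the intervals of macrophages (1.32, 0.880 to 1.95), ductal cells (1.11, 0.957 to 1.29) and B cells (0.351, 0.00863 to 2.09) included 1, while fibroblasts were at 1.80 (1.36 to 2.37).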

How the results depend on the processing

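No paired analysis was possible because the 4 lanes of a library are not separate in the files, and for the same reason no replicate could be left out. The alternatives for each ratio were the mean over cells, totals without the 20 most abundant genes, median-of-ratios scaling, no called doublets, cells under 5% mitochondrial counts, cells with at least 1000 genes, cells thinned to 1000 UMIs, free RNA subtracted, and without 1 or 3 cells with most UMIs of the gene per group, the last chosen after the data were seen. In class 2, FAKi over vehicle, *Reg1* moved from 0.897 to 0.973 as a mean over cells, 0.835 by median of ratios, 0.915 under 5% mitochondrial counts, 0.850 with at least 1000 genes, 0.974 thinned, 0.862 without 1 cell and 0.882 without 3. *Reg2* moved to 0.787 (mean), 0.443 (1000 genes) and 0.803 (thinned) and turned to 1.23 and 2.43 without 1 and 3 cells. *Reg3b* moved to 0.397 (1000 genes) and turned to 1.29 (mean), 1.39 (thinned), 1.99 and 2.59 (without 1 and 3 cells), and *Reg3d* moved to 0.654 (1000 genes). In class 1 *Reg1* moved to 0.771 (mean), 0.647 (median of ratios), 0.616 (1000 genes), 0.778 (thinned), 0.639 (free RNA subtracted), 0.661 and 0.649 (without 1 and 3 cells).

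For class 1 over class 2 in vehicle, *Reg1* moved to 0.290 (without 20 genes), 0.278 (median of ratios), 0.463 (mitochondrial), 0.353 (1000 genes), 0.491 (thinned), 0.456 and 0.481 (without 1 and 3 cells). *Reg2* moved to 0.400, 0.383, 0.391 and 0.745 (without 20 genes, median of ratios, 1000 genes, thinned) and turned to 1.12 and 2.15 without 1 and 3 cells. *Reg3b* turned to 0.933, 0.894 and 0.571 (without 20 genes, median of ratios, 1000 genes) and moved to 1.96 (thinned), 3.23 and 3.56 (without 1 and 3 cells). In FAKi *Reg1* moved to 0.356 (mean), 0.228, 0.198, 0.256 and 0.392 (without 20 genes, median of ratios, 1000 genes, thinned), 0.307 (free RNA subtracted), 0.350 and 0.354 (without 1 and 3 cells). The cause was not tested. Ratios of the sparse members, whose intervals included 1, also crossed 1. In class 2 FAKi over vehicle went from 0.557 to 1.80 (mean), 1.28 and 1.30 (without 1 and 3 cells) for *Reg3a* and from 1.62 to 0.293 (1000 genes) for *Reg3g*, and class 1 over class 2 in vehicle from 0.953 to 1.95 (mean) and 1.22 (mitochondrial) for *Reg3a*. No other ratio of a member between these acinar groups crossed 1 under these alternatives. Ratios per enzyme UMI against class 2 were recomputed without called doublets and without the most abundant enzyme, and all 72 values stayed within their counting interval. Leaving out top cells, added after the data were seen, did change values per enzyme UMI. FAKi over vehicle in class 2 turned from 0.610 to 1.25 and 2.45 for *Reg2* and from 0.689 to 2.01 and 2.62 for *Reg3b* without 1 and 3 cells, and no ratio of *Reg1* or *Reg3d* there, or of these 4 genes in class 1, turned. Raising the count minimum to 100 UMIs moved the share of all genes past 2-fold from 5.78% to 1.64% higher and from 2.83% to 0.73% lower in class 2, from 8.68% to 2.16% and from 3.24% to 1.35% in class 1, and, for class 1 over class 2, from 35.8% to 21.1% higher in vehicle and from 40.1% to 25.2% in FAKi, while the lower share in FAKi went from 3.74% to 6.17%. The genes most like *Reg1* were the same at 20 UMIs and with 10 CPM added, and those of *Reg3d* at 20 UMIs and *Reg2* with 10 CPM added, while the lists of *Reg2* and *Reg3b* at 20 UMIs, of *Reg3b* and *Reg3d* with 10 CPM, and of *Reg3a* and *Reg3g* under both, changed in part or whole. With *Reg3a* and *Reg3g* at most 31 UMIs per library, depth limits what can be said of them.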

Other observations

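In class 1 a *Reg3b* UMI was found in 37.0% (23.2 to 52.5) of vehicle cells with *Reg2* and 20.9% (13.9 to 29.4) of those without, and in 16.3% (6.81 to 30.7) and 4.33% (2.18 to 7.62) of FAKi cells, at median depths of 1866.5, 1341, 1234 and 1134 UMIs. Among cells of class 2 in the FAKi library the cell with most *Reg1* was not that with most *Reg2*: it had 4172 *Reg1* and 23 *Reg3b* UMIs of 117952, while the highest *Reg2* cell had 58 *Reg2* and 0 *Reg3b* UMIs of 86454.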
